A study of Mus musculus with 19 samples.

Results

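Skin with early basal cell carcinoma (BCC) that had been treated by ablative fractional laser was compared with untreated BCC skin across all genes. A fractional laser vaporises a grid of narrow columns in the skin and leaves the tissue between them in place. The comparison uses 8 of the 19 libraries and 7 of the 16 mice in the study, taken by the sample labels: mice 2, 7 and 11 after laser (4 libraries, 2 of them from mouse 11 and summed) and mice 3, 4, 5 and 8 without treatment (4 libraries). The other mice were 4 with BCC treated by vismodegib and 5 with healthy, not induced skin, and they enter the shared fit. They were females of the same strain. Vismodegib, a Hedgehog inhibitor, was given in 8 treatments to mice 268 to 326 days old and 109 to 137 days past induction. Healthy mice were labelled as 128 to 137 days old, younger than every laser-treated mouse. For healthy mouse 16 the labels give 128 days in 1 library and 135 in the other.

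All mice of both groups were females, and the labels give the strain of each as Ptch1+/- K14-CreER2 p53fl/fl. They lack 1 allele of Ptch1, the receptor that restrains Hedgehog signalling, and carry a Cre recombinase that tamoxifen activates in cells with keratin 14 promoter activity, where it removes the floxed Trp53 gene. Per the labels, tumours were induced by 3 injections of 300 µg tamoxifen into the peritoneum and by x-rays at a dose of 4 Gy, so untreated BCC skin had been irradiated as well. The laser was applied once, with microbeams of 40 mJ that covered 5% of the skin in 1 pass, and the skin is labelled as day 4 from treatment. No sham-treated group is among the samples used here. Laser-treated mice were 326, 228 and 275 days old and untreated mice 319, 311, 320 and 278 days old. Days since induction were 116, 80 and 126 after laser and 130, 143, 144 and 137 in untreated skin. The ranges of days do not overlap, so laser and days since induction cannot be told apart by the groups alone.

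A burn wound in skin first draws neutrophils and then monocytes that become macrophages, which clear dead cells through Fc and complement receptors, an oxidase and lysosomal enzymes. Nucleic acids from damaged cells can be sensed by Toll-like receptors and cytosolic sensors, and these induce type I interferons, which act through transcription factors such as IRF9 on promoters that hold an interferon-stimulated response element. BCC is an epithelial tumour driven by Hedgehog signalling through GLI transcription factors and resembles the hair follicle bud. In pieces of whole skin, fewer cells of a type and less RNA per cell cannot be told apart, and the same holds for more.

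Expression is given as CPM, counts scaled to a common library size, in the order mice 2, 7 and 11 after laser and mice 3, 4, 5 and 8 in untreated skin. Krt5 had 3356, 5569.6 and 5600.4 CPM after laser, against 9697, 6256, 3509 and 6820.3 CPM in untreated skin. Krt14 was measured at 7159, 7034 and 15893 CPM in the laser-treated mice and at 5664, 4085, 3027 and 3464 CPM in the untreated mice. These keratins of basal epidermis were abundant in every mouse, as skin should hold, and neither passed the test (Krt5 -0.44, adjusted p = 0.525, Krt14 1.3, adjusted p = 0.0674). For Trp53 the values were 31.5, 44.9 and 40.5 CPM after laser and 31.5, 27.6, 23.6 and 36.3 CPM in untreated skin. The floxed gene did not differ detectably between the groups (log2 fold change 0.39, SE 0.28, adjusted p = 0.471), and its mean in healthy skin was 119 ± 17.8 CPM (SD, n = 5). Hair growth differed between mice: the mean log2 CPM of 24 hair shaft and follicle genes was 0.366, -0.59 and 3.48 after laser and 8.32, 2.37, 1.2 and 3.06 in untreated skin, with mouse 3 far above the rest.

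Of 15760 genes tested with edgeR's quasi-likelihood test, 1221 changed at an adjusted p under 0.05, which is 7.75% of all. After laser 961 rose (6.1%) and 260 fell (1.65%), and 1104 of them changed by at least 2-fold. The genes that rose took up 9.12%, 8.96% and 11.5% of all CPM after laser, against 2.71%, 2.75%, 2.61% and 2.67% in untreated skin, values that follow from their choice. The median log2 fold change of all genes was -0.037, and 46.9% were above 0. The groups did not overlap for 1807 genes higher after laser (11.5%) and for 1157 lower (7.34%). Without mouse 11, 572 genes rose and 25 fell. The falls also dropped to 141 without mouse 4, 118 without mouse 7 and 112 without mouse 8. Calls were kept without each of the 7 mice by 520 genes that rose (3.3%) and 23 that fell (0.146%). With days since induction as a covariate, 513 of the rises and 33 of the falls kept their call. That fit left out the 5 healthy mice, which have no days since induction. Since the ranges of days do not overlap, a call that ended there, here or below, cannot tell days from laser.

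**Figure D1:**
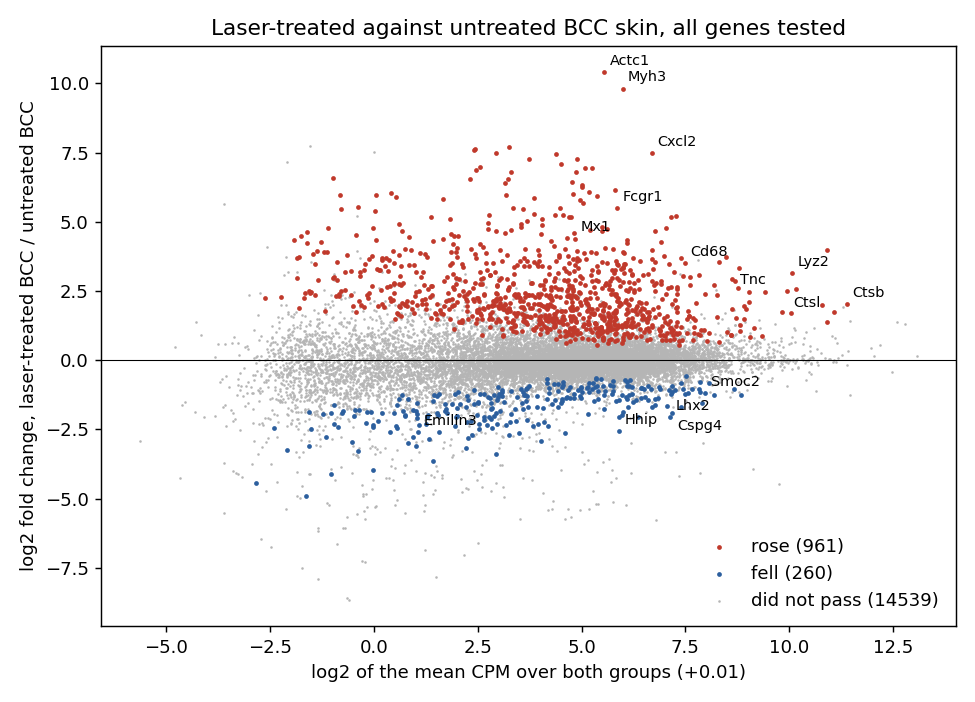
Log2 fold change of laser-treated over untreated BCC skin (y axis) against the log2 of the mean CPM (x axis) for 15760 genes, with the 961 that rose in red and the 260 that fell in blue. Rises reach a log2 fold change of 10.4 (Actc1), while the labelled falls lie between -1.19 and -2.59.

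The 49 gene lists below were written with earlier results of these data in view and are described by counts and medians, beside the shares of all genes above. In the plot of all lists, those of phagocytes, interferon response and regenerating muscle had the largest shares of rises, and the Hedgehog and follicle lists held falls alone.

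**Figure D2:**
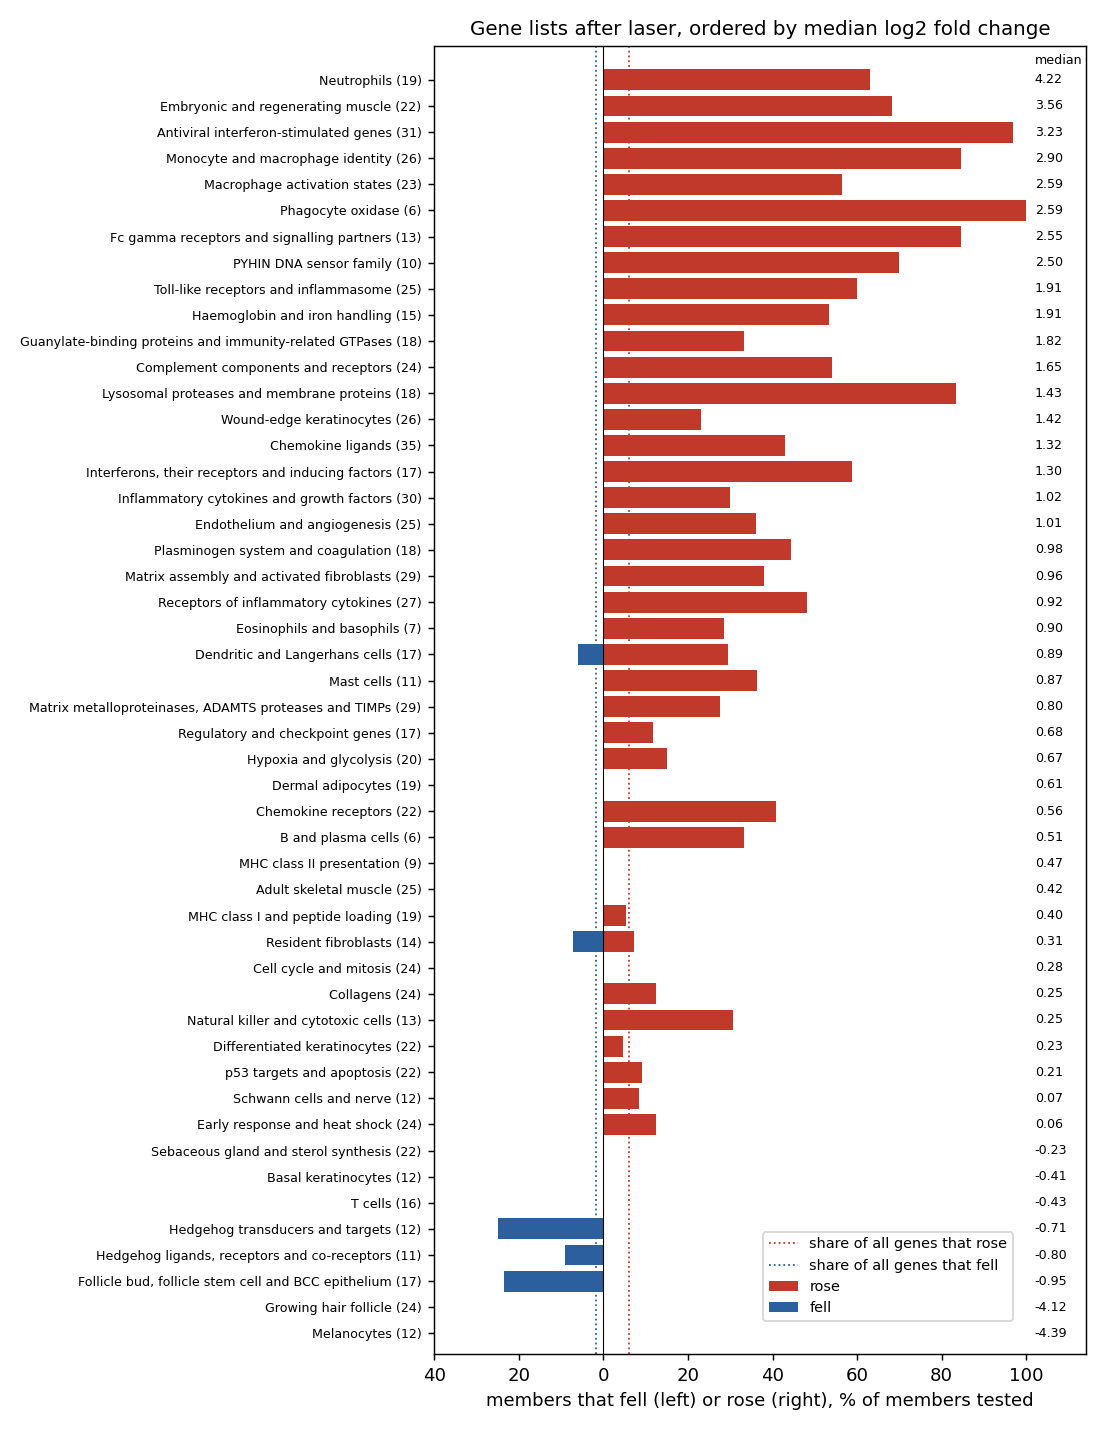
Share of tested members that rose (bars to the right, %) or fell (bars to the left, %) in each of 49 gene lists, ordered by median log2 fold change, with the number tested in brackets. Dotted lines mark the shares of all 15760 genes, 6.1% for rises and 1.65% for falls; for antiviral interferon-stimulated genes 30 of 31 rose.

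Interferon-stimulated antiviral genes rose nearly as a whole. Of 31 tested, 30 rose, with a median log2 fold change of 3.23, and 27 kept the call in each alternative tried. The member that did not pass was Ifih1, a sensor of long double-stranded RNA (1.44, adjusted p = 0.0885). The promoters of such genes carry the response element, and stretches of 80 bases from RefSeq (build GRCm38.p6, read along the gene's strand) are shown for genes that rose (Irgm1 is an interferon-induced GTPase described further on), since they show where the element lies in genes that hold it. Capitals mark the letters GAAANNGAAA or their reverse complement, and in Isg15 overlapping matches run together.
Isg15 (chr4:156200837-156200916, minus strand): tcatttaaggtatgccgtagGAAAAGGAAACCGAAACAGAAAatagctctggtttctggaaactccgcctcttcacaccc
Ifit3 (chr19:34583353-34583432, plus strand): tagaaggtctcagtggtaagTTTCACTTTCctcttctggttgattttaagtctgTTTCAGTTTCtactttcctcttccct
Oas3 (chr5:120777675-120777754, minus strand): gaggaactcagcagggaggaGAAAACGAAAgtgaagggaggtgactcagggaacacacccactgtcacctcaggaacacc
Rsad2 (chr12:26456513-26456592, minus strand): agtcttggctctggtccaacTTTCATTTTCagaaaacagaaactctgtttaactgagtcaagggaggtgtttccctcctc
Irgm1 (chr11:48871421-48871500, minus strand): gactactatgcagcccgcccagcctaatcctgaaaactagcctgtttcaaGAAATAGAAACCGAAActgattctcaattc

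In windows from 250 bases before to 50 after the start, this motif was found on either strand in 14 of 23 antiviral genes with a window (60.9%) and in 10 of 10 guanylate-binding and immunity-related GTPase genes. Over all 32851 windows of this length the share was 3.44%, and over genes tested 3.83%. Among genes that rose it was 10.9% (80 of 736) and among genes that fell 2.54% (5 of 197). Of monocyte and macrophage genes with a window, 0 of 18 held it. A match describes the letters of the window and is not a site shown to be bound.

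Isg15 stood at 111, 94.2 and 81.2 CPM in laser-treated skin and 16.1, 9.79, 10.8 and 3.73 CPM in untreated skin. This ubiquitin-like protein is joined to others during infection, and its values in the groups did not overlap (log2 fold change 3.24, SE 0.44, adjusted p = 0.000241). Mx1 had 59.1, 53.5 and 51 CPM after laser, against 2.32, 2.18, 3.64 and 2.26 CPM in untreated skin. Mx1, a GTPase that blocks influenza virus replication, was more than 10-fold higher in every laser-treated mouse than in any untreated one (log2 fold change 4.39, SE 0.42, adjusted p = 2.2e-05). Rsad2 was measured at 38.1, 38 and 43.5 CPM in the laser-treated mice and at 0.348, 0.705, 2.18 and 0.981 CPM in the untreated mice. The gene for viperin showed the same separation (log2 fold change 5.24, SE 0.56, adjusted p = 4.11e-05). For Oas3 the values were 61, 64.6 and 39.1 CPM after laser and 7.65, 2.73, 5.1 and 1.66 CPM in untreated skin. Oas3 makes the messenger that activates RNase L, and it rose as well (log2 fold change 3.68, SE 0.56, adjusted p = 0.000575). Ifit3 stood at 358, 208 and 193 CPM in laser-treated skin and 5.45, 13.5, 10.6 and 6.98 CPM in untreated skin. Its near-identical copy Ifit3b gave 4.59 beside 4.79, and reads could have been split between them. Dhx58 had 45, 55.5 and 40.3 CPM after laser, against 6.98, 4.82, 5.66 and 3.73 CPM in untreated skin. The RNA sensor LGP2, which this gene encodes, had one of the smallest p-values of the list (log2 fold change 3.15, SE 0.30, adjusted p = 1.97e-05).

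The libraries of mouse 11, which carry the biological replicate numbers 3 and 4 in the labels, differed in this group of genes. Mx1 had 25.9 and 78.4 CPM in them, and Irf7 72.5 and 243. All 31 antiviral genes were higher in the library numbered 4, with a median log2 difference of 1.32, whereas over all genes the median was 0.023 and 90% lay between -0.39 and 0.53. Neutrophil genes did not share this, with a median of -0.030. Either library alone was far above untreated skin for Mx1. Whether the libraries came from separate pieces of skin is not given in the sources used here.

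Interferon genes themselves had few counts. Ifnb1 had 4 counts over the 3 laser-treated mice and 1 over the 4 untreated mice, Ifna4 2 and 0, and Ifng 19 and 9, and none reached the filter for testing. Of 17 tested receptors, sensors and transducers, 10 rose (median 1.3), or 5 with days since induction as a covariate. Irf7 was measured at 267, 283 and 154 CPM in the laser-treated mice and at 27.4, 13.6, 15.9 and 12.8 CPM in the untreated mice. Irf7, the factor that amplifies type I interferon production, rose most among them (log2 fold change 3.75, SE 0.37, adjusted p = 2.32e-05). Stat2, a transducer of type I interferon receptors, rose by 1.54. For Sting1 the values were 55.8, 38.7 and 67.7 CPM after laser and 16.9, 15.2, 14.3 and 17.2 CPM in untreated skin. The adaptor for cytosolic DNA sensing was higher in each laser-treated mouse than in any untreated one (log2 fold change 1.76, SE 0.25, adjusted p = 0.000276). Tlr7, an endosomal sensor of single-stranded RNA, rose by 3.58. The receptor gene Ifnar1 did not pass (0.65, adjusted p = 0.0744). The call of Stat2 did not hold with days since induction as a covariate (log2 fold change 1.04, adjusted p = 0.131).

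The PYHIN family, whose members bind DNA, had 7 rises among 10 tested (median 2.5), but 2 with days as a covariate and 4 without mouse 4 or 11. Ifi208 stood at 3.96, 2.29 and 3.16 CPM in laser-treated skin and 0.116, 0.0882, 0.404 and 0.163 CPM in untreated skin. Ifi209 had 23.3, 17.1 and 30.4 CPM after laser, against 0.232, 2.38, 2.3 and 0.845 CPM in untreated skin. Ifi208 (log2 fold change 4.01, SE 0.55, adjusted p = 0.000248) and Ifi209 (log2 fold change 4.03, SE 0.77, adjusted p = 0.00316) were separated from untreated skin in every mouse, and mouse 3 was the lowest or near the lowest of the untreated mice. Family members are close copies, so reads could be split between them. Guanylate-binding proteins and immunity-related GTPases attack vacuoles of intracellular microbes and respond mainly to interferon gamma. Of 18, 6 rose (median 1.82), against 2 with days as a covariate and 11 in limma voom. Irgm1 was measured at 134, 89.6 and 93.6 CPM in the laser-treated mice and at 9.76, 15, 26.6 and 14.6 CPM in the untreated mice. Irgm1 rose (log2 fold change 2.68, SE 0.38, adjusted p = 0.000368), as did Igtp (1.98) and Irgm2 (1.81). The calls of Igtp and Irgm2 ended where days since induction entered the fit (log2 fold changes 1.99 for Igtp and 1.71 for Irgm2, adjusted p 0.0557 and 0.056).

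Few genes of antigen presentation passed the test, and some members were hardly counted. The class I gene H2-K1 had 3 counts over the laser-treated mice and 1 over the untreated mice. The class II gene H2-Aa had 5 and 8. Neither was tested, so the counts of calls below do not cover them. Tested members of the class I list summed to 3737 to 5495 CPM after laser and 3157 to 3713 CPM in untreated skin. Why H2-K1 and H2-Aa had so few counts was not tested, so these counts are not read as low expression. For MHC class I and peptide loading, 1 of 19 rose, the immunoproteasome subunit Psmb10 (log2 fold change 1.47, SE 0.31, adjusted p = 0.00743), and the list's median was 0.40. For Psmb10 the values were 83.2, 66.7 and 53.9 CPM after laser and 25.7, 25.7, 23.1 and 23.8 CPM in untreated skin. For MHC class II, 0 of 9 passed in edgeR (median 0.47; 0 at an unadjusted p under 0.05, 0 higher and 0 lower in limma voom, and 0 higher and 0 lower in DESeq2). H2-DMa stood at 46.7, 64.1 and 23.8 CPM in laser-treated skin and 26.3, 23.6, 24.6 and 39.1 CPM in untreated skin. This gene of class II peptide exchange had the smallest p of its list and overlapped between the groups, with mouse 11 as low as untreated skin (log2 fold change 0.66, SE 0.39, adjusted p = 0.367). Its direction turned with days as a covariate (-0.26). Days since induction as a covariate ended the call of Psmb10 (log2 fold change 1.54, adjusted p = 0.0567).

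**Figure D3:**
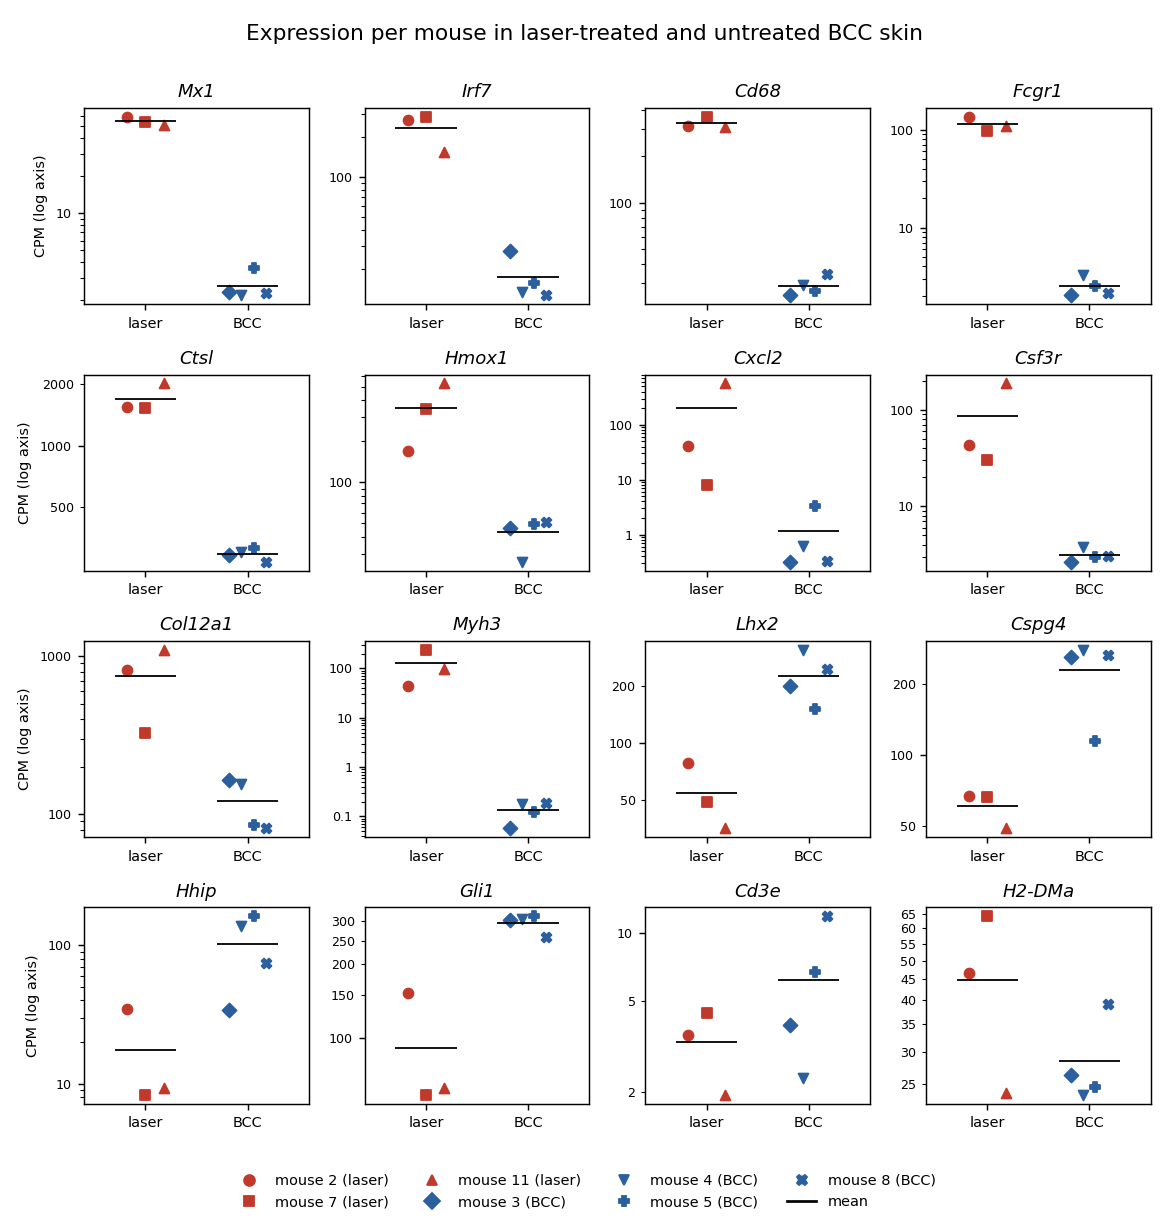
CPM per mouse (y axes, log scale, a scale of its own per gene) for 16 genes, with laser-treated mice in red at the left, untreated BCC mice in blue at the right and the mean of each group as a line. Mx1 separates the groups in all mice, Cxcl2 reaches 567 CPM in mouse 11 against 8.08 in mouse 7, and Hhip and Cd3e overlap.

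Genes of monocytes and macrophages rose together and evenly in all 3 laser-treated mice. Of 26 identity genes, 22 rose (median 2.9) and 18 kept the call without each of the 7 mice. Cd68 had 318, 361 and 313 CPM after laser, against 25, 29.3, 26.6 and 34.4 CPM in untreated skin. Cd68, a lysosomal membrane protein of macrophages, rose 11.5-fold (log2 fold change 3.52, SE 0.31, adjusted p = 9.41e-06). Adgre1 was measured at 224, 192 and 162 CPM in the laser-treated mice and at 13.1, 23.7, 20.2 and 20.8 CPM in the untreated mice. The gene for F4/80, the standard surface marker of mouse macrophages, behaved alike (log2 fold change 3.31, SE 0.33, adjusted p = 2.47e-05). For Mpeg1 the values were 708, 519 and 534 CPM after laser and 29.8, 74.2, 57.4 and 40.9 CPM in untreated skin. Mpeg1 encodes perforin-2, a pore protein of phagocytes (log2 fold change 3.54, SE 0.45, adjusted p = 0.000143). Lyz2 stood at 2156, 1491 and 2165 CPM in laser-treated skin and 128, 325, 219 and 200.2 CPM in untreated skin. Lysozyme, an enzyme against bacterial walls, rose (log2 fold change 3.15, SE 0.61, adjusted p = 0.0035). Ly6c2, found on inflammatory monocytes, rose by 5.18, and Csf1r, the growth factor receptor on which macrophages depend, by 2.07. Macrophages are normal residents of skin, and all 26 genes were also measured in untreated skin.

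Genes that mark macrophage activation were less uniform, with 13 of 23 rises (median 2.59), and 7 without mouse 11 (median 1.22). Trem2 had 89.5, 89.9 and 80 CPM after laser, against 3.19, 4.32, 3.36 and 2.86 CPM in untreated skin. Trem2, a receptor for lipids and dying cells, was even across the laser-treated mice (log2 fold change 4.65, SE 0.48, adjusted p = 3.05e-05). Chil3 was measured at 11.4, 14.7 and 33.8 CPM in the laser-treated mice and at 0.261, 0.588, 0.808 and 0.109 CPM in the untreated mice. For Spp1 the values were 95.3, 77.2 and 416 CPM after laser and 6.89, 17.4, 17.5 and 8.45 CPM in untreated skin. The lectin gene Chil3 (log2 fold change 5.5, SE 0.89, adjusted p = 0.000873) and the gene for osteopontin, Spp1 (log2 fold change 3.96, SE 0.64, adjusted p = 0.000906), were highest in mouse 11. Acod1, which makes itaconate, differed widely between the laser-treated mice. Acod1 stood at 9.39, 0.976 and 125 CPM in laser-treated skin and 0.29, 0.441, 0.435 and 0.163 CPM in untreated skin. It rose (log2 fold change 7.08, SE 1.28, adjusted p = 0.00238). Acod1 lost its call in limma voom (log2 fold change 6.69, adjusted p = 0.0525). Without mouse 11 the log2 fold change of Acod1 was 3.9.

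The machinery of engulfment rose with the cell markers. Of 13 Fc gamma receptors and signalling partners, 11 rose (median 2.55). Fcgr1 had 135, 96.7 and 109 CPM after laser, against 2.03, 3.29, 2.52 and 2.15 CPM in untreated skin. The high-affinity IgG receptor rose 45.4-fold (log2 fold change 5.5, SE 0.45, adjusted p = 9.36e-06), and the kinase genes Lyn (2.71) and Syk (2.55) rose as well. All 6 subunits of the phagocyte oxidase, which makes superoxide, rose (median 2.59). Cybb was measured at 135, 113 and 103 CPM in the laser-treated mice and at 3.77, 15.4, 14.3 and 11.6 CPM in the untreated mice. Its catalytic subunit Cybb (log2 fold change 3.38, SE 0.44, adjusted p = 0.000175) and the cytosolic subunit Ncf1 (log2 fold change 2.86, SE 0.29, adjusted p = 3.05e-05) were above untreated skin in every mouse. For Ncf1 the values were 63.8, 79.8 and 78.9 CPM after laser and 7.65, 8.55, 12.5 and 12.3 CPM in untreated skin. Of 18 lysosomal proteases and membrane proteins, 15 rose (median 1.43). Ctsl stood at 1539.9, 1529 and 2009.6 CPM in laser-treated skin and 295, 302, 317 and 272 CPM in untreated skin. Ctsb had 4447, 4173 and 4342 CPM after laser, against 1479, 911, 909.6 and 932 CPM in untreated skin. Cathepsins L (log2 fold change 2.51, SE 0.24, adjusted p = 1.97e-05) and B (log2 fold change 2.03, SE 0.28, adjusted p = 0.000232) rose. Of genes without overlap whose call was kept without each mouse, both were among the 8 with the largest gains in mean CPM, as were the sphingolipid activator gene Psap (1.73), cathepsin D (1.37), the ferritin light chain gene Ftl1 (1.98), the selenium carrier gene Selenop (1.69) and Tnc. Lipa, the lysosomal lipase, rose by 2.76 with no overlap. The call of Psap did not hold with days since induction as a covariate (log2 fold change 0.98, adjusted p = 0.228). Ctsd lost its call in a fit of the 7 mice alone (log2 fold change 1.33, adjusted p = 0.0552). The same held with days since induction as a covariate (log2 fold change 1.04, adjusted p = 0.21).

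Complement and pattern receptors moved in the same direction. Of 24 complement components and receptors, 13 rose (median 1.65). C3ar1 was measured at 243, 150.0 and 238 CPM in the laser-treated mice and at 4.58, 9.88, 11.4 and 7.63 CPM in the untreated mice. For C5ar1 the values were 72.3, 102 and 132 CPM after laser and 4.63, 5.14, 5.94 and 9.7 CPM in untreated skin. The receptors for the anaphylatoxins C3a (log2 fold change 4.65, SE 0.38, adjusted p = 9.36e-06) and C5a (log2 fold change 4.0, SE 0.41, adjusted p = 3.04e-05) were far above untreated skin in each laser-treated mouse, and C5ar2 rose by 3.91. Among 25 Toll-like receptors and inflammasome genes, 15 rose (median 1.91). Tlr13 stood at 86.5, 64.9 and 132 CPM in laser-treated skin and 1.68, 5.41, 4.45 and 2.53 CPM in untreated skin. Tlr13, a sensor of bacterial ribosomal RNA in mice, rose most of the members named here (log2 fold change 4.75, SE 0.56, adjusted p = 8.27e-05). Tlr1 (3.78) and Tlr2 (2.36), receptors for bacterial lipopeptides, rose less. Haemoglobin and iron handling had 8 rises among 15 (median 1.91). Hmox1 had 169, 344 and 533 CPM after laser, against 46.2, 26.1, 49.8 and 51.2 CPM in untreated skin. Haem oxygenase, which degrades haem, rose (log2 fold change 3.01, SE 0.35, adjusted p = 7.36e-05). Slc11a1 was measured at 58.8, 88.2 and 119 CPM in the laser-treated mice and at 3.71, 3.76, 5.69 and 8.34 CPM in the untreated mice. This iron transporter of phagosomes rose with no overlap (log2 fold change 4.04, SE 0.45, adjusted p = 6.92e-05).

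Neutrophil genes rose too, but by very different amounts in the 3 laser-treated mice. Of 19 tested, 12 rose (median 4.22), and without mouse 11 8 rose (median 2.22). The sum over the list was 459.7, 289 and 3433 CPM after laser and 71.6, 197, 210.5 and 144 CPM in untreated skin, so mouse 11 stood far above mice 2 and 7. For Csf3r the values were 43, 30.2 and 187 CPM after laser and 2.66, 3.79, 2.95 and 3.05 CPM in untreated skin. The receptor for the growth factor G-CSF rose (log2 fold change 4.8, SE 0.59, adjusted p = 9.86e-05). Fpr1 stood at 2.89, 0.762 and 28.1 CPM in laser-treated skin and 0.0869, 0.0294, 0.0933 and 0 CPM in untreated skin. Retnlg had 6.75, 1.59 and 117 CPM after laser, against 0.116, 0.323, 0.249 and 0.245 CPM in untreated skin. The formyl peptide receptor (log2 fold change 7.6, SE 1.21, adjusted p = 0.000781) and the resistin-like gene (log2 fold change 7.46, SE 1.33, adjusted p = 0.00221) were highest in mouse 11. S100a8 was measured at 63.7, 27.2 and 798 CPM in the laser-treated mice and at 11.5, 64.7, 51.7 and 9.75 CPM in the untreated mice. S100a8, an alarmin that neutrophils and wounded epidermis both make, overlapped between the groups and did not pass (log2 fold change 3.11, SE 1.21, adjusted p = 0.146). The granule gene Ngp had 193 counts over the laser-treated mice and 0 over the untreated mice and was not tested. Without mouse 11 the log2 fold changes were 5.01 for Fpr1 and 4.1 for Retnlg, and their calls remained.

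Chemokine ligands had 15 rises among 35 (median 1.32), and 8 without mouse 11. For Cxcl2 the values were 40.9, 8.08 and 567 CPM after laser and 0.319, 0.617, 3.36 and 0.327 CPM in untreated skin. Cxcl2, which attracts neutrophils, spanned a wide range after laser, and even its lowest value was above all untreated mice (log2 fold change 7.48, SE 1.52, adjusted p = 0.00692). Ccl3 stood at 17.5, 4.88 and 179 CPM in laser-treated skin and 0.29, 0.382, 1.31 and 0.191 CPM in untreated skin. Ccl3, a ligand of CCR1, rose (log2 fold change 6.96, SE 1.08, adjusted p = 0.000659), and Ccl4 by 6.96. Ccl9 had 357, 292 and 296 CPM after laser, against 17, 24.2, 35.5 and 20.2 CPM in untreated skin. Cxcl10 was measured at 8.69, 8.51 and 7.01 CPM in the laser-treated mice and at 0.608, 1.09, 0.933 and 0.49 CPM in the untreated mice. In contrast to these, Ccl9 (log2 fold change 3.7, SE 0.48, adjusted p = 0.000148) and the interferon-induced Cxcl10 (log2 fold change 3.37, SE 0.45, adjusted p = 0.0002) were close to equal in the 3 laser-treated mice. Within mouse 11, however, Cxcl10 had 3.07 CPM in the library numbered 3 and 11.3 in that numbered 4, and Ccl9 271 and 333. Chemokine receptors had 9 rises among 22 (median 0.56), 4 without mouse 11 and 5 with days as a covariate. For Ccr1 the values were 37.9, 18.1 and 155 CPM after laser and 1.1, 3.79, 4.35 and 1.58 CPM in untreated skin. Ccr1 rose (log2 fold change 4.7, SE 0.83, adjusted p = 0.00189), and so did the atypical receptor gene Ccrl2 (4.29). Cxcl2 lost its call in a fit of the 7 mice alone (log2 fold change 7.48, adjusted p = 0.0704). Without mouse 11 the log2 fold changes were 4.36 for Cxcl2, 4.32 for Ccl3 and 4.51 for Ccl4, and their calls remained.

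Inflammatory cytokines and growth factors had 9 rises among 30 (median 1.02), 3 without mouse 11 and 5 in a fit of the 7 mice alone. Il1b stood at 125, 19.6 and 765 CPM in laser-treated skin and 3.36, 9.85, 14.2 and 5.39 CPM in untreated skin. Osm had 8.09, 6.28 and 52.9 CPM after laser, against 0.637, 0.588, 0.995 and 0.708 CPM in untreated skin. Interleukin 1 beta (log2 fold change 5.21, SE 1.02, adjusted p = 0.00461) and oncostatin M (log2 fold change 4.93, SE 0.66, adjusted p = 0.0002), a cytokine that acts on keratinocytes and fibroblasts, were several times higher in mouse 11 than in mice 2 and 7. Il10 was measured at 2.66, 2.16 and 1.94 CPM in the laser-treated mice and at 0.0869, 0.176, 0.497 and 0.191 CPM in the untreated mice. The restraining cytokine Il10 was low and even (log2 fold change 3.23, SE 0.75, adjusted p = 0.0124). Their receptors had 13 rises among 27 (median 0.92), and 8 without mouse 11 (median 0.47) or with days as a covariate. For Tnfrsf1b the values were 122, 136 and 175 CPM after laser and 23.1, 18.1, 24.5 and 30.8 CPM in untreated skin. The second TNF receptor was even after laser (log2 fold change 2.58, SE 0.29, adjusted p = 7.36e-05), as was Il10ra (2.42). The call of Il10 ended where days since induction entered the fit (log2 fold change 4.13, adjusted p = 0.0523). Without mouse 11 the log2 fold changes were 3.25 for Osm and 3.08 for Il1b, and their calls remained.

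**Figure D4:**
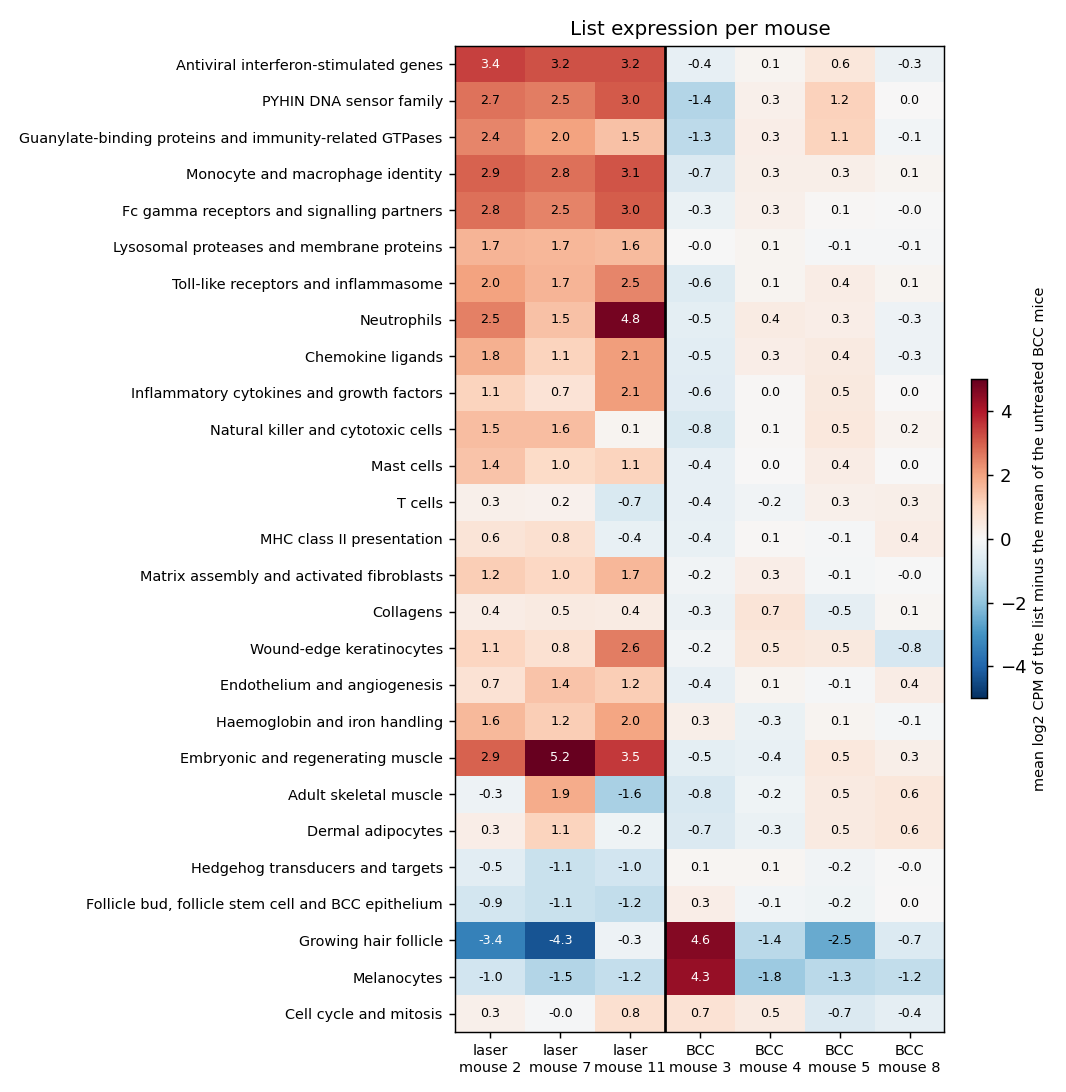
Mean log2 CPM of 27 gene lists per mouse, minus the mean of the 4 untreated BCC mice, with laser-treated mice left of the black line and untreated mice right of it. Interferon and macrophage lists are alike in the 3 laser-treated mice, the neutrophil list is highest in mouse 11, embryonic muscle in mouse 7, and hair and melanocyte lists stand out in untreated mouse 3.

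T cell genes did not pass the test. Of 20 listed, 16 were tested, since the deposited counts do not hold the receptor constant genes Trac, Trbc1, Trbc2 and Trdc. Of the 16, 0 passed in the main edgeR fit in either direction (median -0.43), with 2 at an unadjusted p under 0.05. There were 0 higher and 0 lower in limma voom, and 1 higher and 0 lower in DESeq2. Within edgeR, 1 was higher with the replicate number as a block and 1 lower with the growing-hair score as a covariate. The median was -0.084 without mouse 11. Cd3e stood at 3.55, 4.42 and 1.94 CPM in laser-treated skin and 3.94, 2.29, 6.72 and 11.8 CPM in untreated skin. This chain of the T cell receptor complex overlapped between the groups (log2 fold change -0.91, SE 0.56, adjusted p = 0.384). Cd28 had the smallest p of the list and is given by its values. Cd28 had 6.15, 3.11 and 2.56 CPM after laser, against 0.753, 1.47, 2.3 and 1.69 CPM in untreated skin. It did not pass (log2 fold change 1.34, SE 0.45, adjusted p = 0.0895). Of 17 regulatory and checkpoint genes, 2 rose, Vsir (1.54), a checkpoint protein also made by myeloid cells, and Il10, and 0 did with days as a covariate, against 4 each in limma voom and DESeq2 (median 0.68).

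Natural killer and cytotoxic genes were split. Of 13 tested, 4 rose (median 0.25), and with days as a covariate 1 did. Gzma was measured at 2.6, 2.71 and 0.791 CPM in the laser-treated mice and at 0, 0.0294, 0.0622 and 0.0272 CPM in the untreated mice. For Ncr1 the values were 2.09, 1.92 and 0.512 CPM after laser and 0.0579, 0.176, 0.155 and 0.218 CPM in untreated skin. Granzyme A (log2 fold change 5.96, SE 0.90, adjusted p = 0.000559) and the natural killer receptor NKp46 (log2 fold change 3.27, SE 0.62, adjusted p = 0.00297) had low levels, and mouse 11 was the lowest of the laser-treated mice. Gzmb stood at 10.7, 11.9 and 4.41 CPM in laser-treated skin and 1.07, 1.21, 2.18 and 1.5 CPM in untreated skin. Granzyme B had the same order (log2 fold change 2.59, SE 0.59, adjusted p = 0.0117), and the fourth was the death ligand gene Fasl (2.24). The libraries of mouse 11 numbered 3 and 4 differed, with 0.408 and 1.21 CPM for Gzma, 0.125 and 0.925 for Ncr1 and 2.01 and 7.02 for Gzmb. B and plasma cells were measured by 6 testable genes, of which 2 rose (median 0.51). Cd22 had 16.1, 14.3 and 8.21 CPM after laser, against 0.492, 0.647, 0.28 and 0.518 CPM in untreated skin. Cd79b was measured at 3.11, 2.38 and 1.81 CPM in the laser-treated mice and at 0.232, 0.647, 0.218 and 0.30 CPM in the untreated mice. Cd22 (log2 fold change 4.72, SE 0.46, adjusted p = 2.22e-05) and Cd79b (log2 fold change 2.79, SE 0.57, adjusted p = 0.00578) rose, while the defining B cell gene Ms4a1 was too low for the test, with 10 counts over the laser-treated mice and 3 over the untreated mice. Days since induction as a covariate ended the calls of Vsir, Ncr1 and Gzmb (log2 fold changes 1.21 for Vsir, 2.95 for Ncr1 and 2.57 for Gzmb, adjusted p 0.056 to 0.148). Fasl lost its call when any 1 of mice 2, 7, 8 and 11 was left out, with days since induction as a covariate and in 2 other alternatives (log2 fold change 1.92 to 2.41, adjusted p 0.0591 to 0.258).

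Dendritic and Langerhans cell genes had 5 rises and 1 fall among 17 (median 0.89). For Clec10a the values were 134, 166 and 120.0 CPM after laser and 20.5, 28, 40.9 and 45.6 CPM in untreated skin. Siglech stood at 6.88, 4.85 and 7.85 CPM in laser-treated skin and 0.116, 0.735, 0.902 and 0.627 CPM in untreated skin. The lectin gene Clec10a (log2 fold change 2.05, SE 0.36, adjusted p = 0.00185), which macrophages make as well, and the plasmacytoid marker Siglech (log2 fold change 3.45, SE 0.63, adjusted p = 0.00237) rose with no overlap. Epcam had 159, 194 and 155 CPM after laser, against 342, 284, 256 and 291 CPM in untreated skin. Epcam, made by Langerhans cells and by epithelium, was the member that fell (log2 fold change -0.79, SE 0.22, adjusted p = 0.0332). Mast cell genes had 4 rises among 11 (median 0.87), 2 without mouse 2 or with days as a covariate. Tpsab1 was measured at 7.39, 6.34 and 8.48 CPM in the laser-treated mice and at 0.463, 0.411, 0.777 and 0.572 CPM in the untreated mice. Tryptase alpha/beta 1 rose (log2 fold change 3.73, SE 0.31, adjusted p = 9.41e-06), as did Hdc, which makes histamine also in neutrophils (4.22). Of 7 eosinophil and basophil genes 2 rose (median 0.90), Mcpt8 of basophils (2.98) and the eotaxin receptor gene Ccr3 (2.12), and neither call stood without mouse 4, 8 or 11. Epcam lost its call when any 1 of mice 2, 3, 4, 8 and 11 was left out, with days since induction as a covariate and in 2 other alternatives (log2 fold change -0.71 to -1.15, adjusted p 0.0555 to 0.158). Mcpt8 lost its call when any 1 of mice 4, 5, 7, 8 and 11 was left out, with days since induction as a covariate and in 2 other alternatives (log2 fold change 2.62 to 3.29, adjusted p 0.052 to 0.097). Ccr3 lost its call when any 1 of mice 2, 4, 7, 8 and 11 was left out, with days since induction as a covariate and in 3 other alternatives (log2 fold change 1.87 to 2.88, adjusted p 0.0619 to 0.126). Without mouse 11 the log2 fold change of Hdc was 2.27.

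Genes of wound matrix rose in part, and few collagens passed the test. Of 29 genes of matrix assembly and activated fibroblasts, 11 rose (median 0.96), and 7 without mouse 11. For Tnc the values were 1068, 647 and 1779 CPM after laser and 293, 165, 124 and 255 CPM in untreated skin. Tenascin C, a matrix protein of healing wounds, rose in all mice and most in mouse 11 (log2 fold change 2.48, SE 0.45, adjusted p = 0.00236). Cthrc1 stood at 115, 64.8 and 91.3 CPM in laser-treated skin and 7.3, 13.2, 7.93 and 3.38 CPM in untreated skin. This secreted marker of activated fibroblasts rose (log2 fold change 3.5, SE 0.55, adjusted p = 0.0007). Loxl3 had 27.4, 38.6 and 59.8 CPM after laser, against 7.73, 5.91, 3.42 and 5.42 CPM in untreated skin. Thbs2 was measured at 1132, 615 and 815 CPM in the laser-treated mice and at 131, 235, 206 and 229 CPM in the untreated mice. The collagen cross-linking enzyme gene Loxl3 (log2 fold change 2.9, SE 0.36, adjusted p = 0.000124) and thrombospondin 2 (log2 fold change 2.09, SE 0.37, adjusted p = 0.00188) were also separated. Of 24 collagens 3 rose (median 0.25), Col8a1 (2.91), Col5a3 (2.2) and Col12a1, and 5 did without mouse 4 or in DESeq2. For Col12a1 the values were 819, 328 and 1097 CPM after laser and 164, 155, 85.4 and 81.6 CPM in untreated skin. Col12a1, which decorates collagen fibrils, was lowest in mouse 7 of the laser-treated mice (log2 fold change 2.62, SE 0.50, adjusted p = 0.00339). Resident fibroblast genes had 1 rise and 1 fall among 14 (median 0.31), Ly6a (1.85) and Smoc2 (-1.19), against 4 rises and 2 falls in limma voom. The calls of Col5a3 (log2 fold change 1.7, adjusted p = 0.0595) and Smoc2 (-1.31, adjusted p = 0.0995) did not hold with days since induction as a covariate. Ly6a lost its call when any 1 of the 7 mice was left out, with days since induction as a covariate and in 4 other alternatives (log2 fold change 1.38 to 2.8, adjusted p 0.0531 to 0.198).

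Matrix proteases and their inhibitors had 8 rises among 29 (median 0.80), and 5 without mouse 11. Mmp19 stood at 114, 132 and 98.4 CPM in laser-treated skin and 20.2, 20.6, 18.9 and 19 CPM in untreated skin. Mmp9 had 68.5, 82 and 185 CPM after laser, against 13.8, 13.2, 19 and 17.3 CPM in untreated skin. Mmp19 (log2 fold change 2.54, SE 0.34, adjusted p = 0.000179) was even after laser, and Mmp9 (log2 fold change 2.82, SE 0.44, adjusted p = 0.000641), a gelatinase that neutrophils also store, was highest in mouse 11. The plasminogen system and coagulation had 8 rises among 18 (median 0.98). F7 was measured at 14.4, 16.3 and 9.37 CPM in the laser-treated mice and at 1.16, 1.09, 1.31 and 1.12 CPM in the untreated mice. Coagulation factor VII rose with no overlap (log2 fold change 3.51, SE 0.41, adjusted p = 8.03e-05). For Plaur the values were 32.2, 32.9 and 136 CPM after laser and 7.56, 10.3, 6.13 and 7.66 CPM in untreated skin. The urokinase receptor rose as well (log2 fold change 3.09, SE 0.44, adjusted p = 0.000328). Without mouse 11 the log2 fold change of Plaur was 2.01.

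Keratinocyte genes of the wound edge rose in part. Of 26 tested, 6 rose (median 1.42), against 2 without mouse 11 (median 0.75) 12 in limma voom and 10 in DESeq2. Krt6b stood at 1561, 1934 and 7435 CPM in laser-treated skin and 172, 479, 232 and 31.9 CPM in untreated skin. Krt16 had 978, 1256 and 3627 CPM after laser, against 333, 487, 369.5 and 112 CPM in untreated skin. These keratins of activated epidermis rose (Krt6b log2 fold change 3.99, SE 0.95, adjusted p = 0.0148; Krt16 log2 fold change 2.59, SE 0.59, adjusted p = 0.0109) and were highest in mouse 11. Mmp13 was measured at 108, 29.5 and 183 CPM in the laser-treated mice and at 2.75, 12.1, 20.3 and 3.6 CPM in the untreated mice. Collagenase 3 rose (log2 fold change 3.47, SE 0.71, adjusted p = 0.00561). Of 22 genes of differentiated keratinocytes 1 passed, Casp14 (1.43), a caspase of cornification (median 0.23), and of 12 basal keratinocyte genes 0 did in edgeR (median -0.41; 4 at an unadjusted p under 0.05, 2 higher and 0 lower in limma voom, and 1 higher and 0 lower in DESeq2). Krt6b lost its call without mouse 11 (log2 fold change 2.89, adjusted p = 0.115). Krt16 lost its call without mouse 11 (log2 fold change 1.74, adjusted p = 0.124). Casp14 lost its call when any 1 of mice 4, 7, 8 and 11 was left out, with library size alone as the scaling and with days since induction as a covariate (log2 fold change 0.70 to 1.49, adjusted p 0.053 to 0.354). With days since induction as a covariate the log2 fold change of Mmp13 was 5.22.

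Endothelial and angiogenic genes had 9 rises among 25 (median 1.01), 4 without mouse 7 and 3 with days as a covariate. For Angpt2 the values were 14.5, 17.3 and 20.6 CPM after laser and 2.09, 4.06, 3.79 and 3.76 CPM in untreated skin. Aplnr stood at 25.7, 31.5 and 38.1 CPM in laser-treated skin and 6.31, 9.49, 3.82 and 6.27 CPM in untreated skin. Vcam1 had 43, 43.4 and 40.6 CPM after laser, against 4.72, 14.5, 8.86 and 6.19 CPM in untreated skin. The vessel-destabilising ligand Angpt2 (log2 fold change 2.35, SE 0.38, adjusted p = 0.000873), the apelin receptor gene (log2 fold change 2.29, SE 0.38, adjusted p = 0.00111) and the adhesion molecule Vcam1 (log2 fold change 2.3, SE 0.44, adjusted p = 0.00353) were higher in each laser-treated mouse than in any untreated one. Of 20 hypoxia and glycolysis genes 3 rose (median 0.67), Hk3 (3.72), a hexokinase found mainly in myeloid cells, Adm (1.87) and Slc2a3 (2.72), against 5 in limma voom. The call of Adm ended where days since induction entered the fit (log2 fold change 1.85, adjusted p = 0.073). Slc2a3 lost its call without mouse 4 or 11, in a fit of the 7 mice alone and in limma voom (log2 fold change 0.53 to 2.7, adjusted p 0.0533 to 0.581).

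The largest fold changes belonged to genes of forming muscle. Of 22 embryonic and regenerating muscle genes, 15 rose (median 3.56), against 8 without mouse 7 and 5 with days as a covariate. Actc1 was measured at 31.1, 184 and 63.8 CPM in the laser-treated mice and at 0.0869, 0.0294, 0.0933 and 0.0545 CPM in the untreated mice. For Myh3 the values were 44.1, 238 and 98.5 CPM after laser and 0.0579, 0.176, 0.124 and 0.191 CPM in untreated skin. Cardiac actin (log2 fold change 10.4, SE 1.43, adjusted p = 0.00028) and embryonic myosin heavy chain (log2 fold change 9.81, SE 1.25, adjusted p = 0.000155) were below 1 CPM in each untreated mouse and above 30 CPM in each laser-treated mouse. Mymk stood at 2.57, 24.8 and 4.81 CPM in laser-treated skin and 0.0869, 0.0294, 0.0622 and 0.0272 CPM in untreated skin. Myomaker, which fuses myoblasts, rose (log2 fold change 7.62, SE 1.02, adjusted p = 0.000203). Myog had 9.96, 63.4 and 23.2 CPM after laser, against 0.319, 0.323, 1.83 and 1.23 CPM in untreated skin. Myogenin, a transcription factor of differentiating muscle, rose (log2 fold change 5.12, SE 1.0, adjusted p = 0.00404). Myl4 was measured at 26.3, 108 and 29.3 CPM in the laser-treated mice and at 0.492, 0.794, 1.15 and 0.926 CPM in the untreated mice. This embryonic light chain rose (log2 fold change 6.01, SE 0.70, adjusted p = 7.93e-05), and in all of these mouse 7 was the highest. Of 25 adult skeletal muscle genes 0 passed in edgeR (median 0.42, and -0.93 without mouse 7; 2 at an unadjusted p under 0.05, 1 higher and 0 lower in limma voom, and 1 higher and 0 lower in DESeq2). For Tnnt1 the values were 4.63, 25.4 and 9.0 CPM after laser and 1.1, 7.08, 1.62 and 1.31 CPM in untreated skin. Slow troponin T had the smallest p of that list and overlapped (log2 fold change 2.23, SE 0.74, adjusted p = 0.0816). A muscle sheet lies under mouse skin, and how much of it each piece held was not measured, beside sums of adult muscle genes of 4487, 20278 and 1849.9 CPM after laser and 3748, 5228, 8240.5 and 10155 CPM in untreated skin. Days since induction as a covariate ended the call of Myog (log2 fold change 3.64, adjusted p = 0.114). With days since induction as a covariate the log2 fold change of Mymk was 4.88.

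Few Hedgehog genes passed the test, and those that did fell. Of 11 ligands, receptors and co-receptors 1 fell (median -0.80; 4 in limma voom, 6 in DESeq2). Of 12 transducers and targets 3 fell (median -0.71; 5 in limma voom, in DESeq2 and in a fit of the 7 mice alone). An unadjusted edgeR p under 0.05 was found for 6 of the 11 and 7 of the 12, against 3254 of all 15760 genes. The groups did not overlap for 4 and 5 members, all lower after laser, against 7.34% of all genes lower. In both lists 0 fell without mouse 7, without mouse 11 or with days as a covariate, and without mouse 3 1 transducer did. Ptch1 stood at 76.4, 24.1 and 29.8 CPM in laser-treated skin and 100.5, 122, 125 and 68.6 CPM in untreated skin. Ptch1 is a target of the pathway as well as its receptor, and mouse 2 overlapped with untreated mouse 8 (log2 fold change -1.26, SE 0.46, adjusted p = 0.113). Gli1 had 153, 58.7 and 62.2 CPM after laser, against 302, 307, 314 and 258 CPM in untreated skin. Gli1, the most direct readout of the pathway, did not overlap between the groups and missed the threshold (log2 fold change -1.69, SE 0.51, adjusted p = 0.055). Gli2 was measured at 58.6, 35.8 and 33.9 CPM in the laser-treated mice and at 141, 111, 89.9 and 125 CPM in the untreated mice. Gli2, the activator upstream of it, fell (log2 fold change -1.45, SE 0.34, adjusted p = 0.0136). For Hhip the values were 34.7, 8.32 and 9.28 CPM after laser and 34.1, 137, 162 and 74.2 CPM in untreated skin. Hhip, a decoy that binds Hedgehog ligands, fell (log2 fold change -2.55, SE 0.58, adjusted p = 0.0112), and mouse 2 was level with untreated mouse 3. Kif7 stood at 12.7, 7.53 and 9.1 CPM in laser-treated skin and 31.1, 23.3, 23 and 26.1 CPM in untreated skin. The ciliary kinesin Kif7 fell (log2 fold change -1.41, SE 0.37, adjusted p = 0.0264), as did cyclin D1, Ccnd1 (-1.18). In every one of these genes mouse 2 was the highest of the laser-treated mice. Gli2 lost its call without mouse 7 or 11 and with days since induction as a covariate (log2 fold change -1.34 to -1.5, adjusted p 0.0654 to 0.148). Hhip lost its call without mouse 7 or 11 and with days since induction as a covariate (log2 fold change -1.56 to -2.29, adjusted p 0.0559 to 0.286). Kif7 lost its call when any 1 of mice 3, 7, 8 and 11 was left out and with days since induction as a covariate (log2 fold change -1.21 to -1.43, adjusted p 0.0558 to 0.251). Ccnd1 lost its call when any 1 of mice 2, 3, 4, 7 and 11 was left out, with days since induction as a covariate and with a growing-hair score as a covariate (log2 fold change -1.0 to -1.35, adjusted p 0.052 to 0.158).

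Genes of the follicle bud, follicle stem cells and BCC epithelium fell in 4 of 17 cases (median -0.95), 1 without mouse 11 or with days as a covariate, 2 without mouse 3, 7 or 8, 8 in DESeq2 and 9 in limma voom. Lhx2 had 78.8, 48.6 and 35.5 CPM after laser, against 200.3, 311, 152 and 246 CPM in untreated skin. Lhx2, a transcription factor of the follicle bud and bulge, fell to 54.3 ± 22.2 CPM after laser, against 227 ± 67.6 CPM in untreated skin (SD, n = 3 and 4; log2 fold change -2.07, SE 0.38, adjusted p = 0.00232). Sox9 was measured at 75.2, 43 and 59.8 CPM in the laser-treated mice and at 173, 148, 149 and 162 CPM in the untreated mice. For Lgr6 the values were 47.7, 21.9 and 21 CPM after laser and 99.7, 68.3, 85.3 and 79.5 CPM in untreated skin. The stem cell factor Sox9 (log2 fold change -1.41, SE 0.36, adjusted p = 0.0248) and the receptor gene Lgr6 of the upper follicle (log2 fold change -1.46, SE 0.36, adjusted p = 0.017) fell without overlap. Hair growth differed between these mice as given above, and with the growing-hair score as a covariate 3 of the list fell. Tbx1, a factor of follicle stem cells, fell by 2.06 on the log2 scale. The call of Lhx2 did not hold with days since induction as a covariate (log2 fold change -1.84, adjusted p = 0.133). Sox9 lost its call when any 1 of mice 3, 7, 8 and 11 was left out and with days since induction as a covariate (log2 fold change -1.23 to -1.46, adjusted p 0.0502 to 0.187). Lgr6 lost its call without mouse 7 or 11 and with days since induction as a covariate (log2 fold change -1.28 to -1.77, adjusted p 0.0828 to 0.107). Tbx1 lost its call when any 1 of mice 2, 3, 4, 7, 8 and 11 was left out, with days since induction as a covariate and in 5 other alternatives (log2 fold change -1.51 to -2.19, adjusted p 0.051 to 0.29).

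The firmest falls lay outside these lists. In each alternative tried 7 genes kept their fall, namely Baiap3, Cspg4, Emilin3, Kcnip2, Lamc3, Nacad and Tfap4. Cspg4 stood at 66.9, 66.6 and 48.9 CPM in laser-treated skin and 260.0, 280.1, 114 and 265 CPM in untreated skin. Cspg4 encodes the proteoglycan NG2, which marks pericytes and some epidermal progenitors, and mouse 5 was the lowest untreated mouse (log2 fold change -1.92, SE 0.35, adjusted p = 0.00235). Lamc3 had 22.9, 21.1 and 19.1 CPM after laser, against 62.2, 74.5, 70.6 and 78.4 CPM in untreated skin. Laminin gamma 3, a basement membrane chain, had little spread in either group (log2 fold change -1.76, SE 0.25, adjusted p = 0.000335). Emilin3 was measured at 0.666, 0.671 and 0.45 CPM in the laser-treated mice and at 2.11, 5.32, 3.23 and 3.68 CPM in the untreated mice. For Kcnip2 the values were 4.19, 3.08 and 1.66 CPM after laser and 7.62, 13.9, 12.9 and 13.4 CPM in untreated skin. Emilin3, a matrix glycoprotein (log2 fold change -2.59, SE 0.49, adjusted p = 0.00294), and Kcnip2, a partner of potassium channels (log2 fold change -2.01, SE 0.38, adjusted p = 0.00316), were low in all mice and did not overlap. Tfap4 stood at 8.69, 10.5 and 7.2 CPM in laser-treated skin and 27.2, 20.2, 15.7 and 24.2 CPM in untreated skin. The transcription factor gene Tfap4 fell (log2 fold change -1.31, SE 0.23, adjusted p = 0.00181), as did Baiap3 (-2.4) and Nacad (-1.95), both low throughout.

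Among falls kept without each mouse, the rule also names Fzd7, a Wnt receptor gene. Fzd7 had 144, 89.6 and 89.7 CPM after laser, against 280.5, 249.7, 216 and 268 CPM in untreated skin. It fell (log2 fold change -1.24, SE 0.25, adjusted p = 0.00453). Shisa2 was measured at 48.3, 37.1 and 33.7 CPM in the laser-treated mice and at 127, 123, 76.4 and 121 CPM in the untreated mice. Shisa2, whose frog relative holds back Wnt and FGF receptors, fell (log2 fold change -1.5, SE 0.30, adjusted p = 0.00533). For Tenm2 the values were 27.4, 23.7 and 32.1 CPM after laser and 63.2, 149, 89.8 and 101 CPM in untreated skin. Adgrl1 stood at 64.9, 54.9 and 57.9 CPM in laser-treated skin and 125, 123, 97.8 and 140.2 CPM in untreated skin. The adhesion genes Tenm2 (log2 fold change -1.86, SE 0.38, adjusted p = 0.00499) and Adgrl1 (log2 fold change -1.04, SE 0.23, adjusted p = 0.00855), known mainly from synapses, fell without overlap. Fstl4 (-2.6), Panx2 (-2.34) and Ajap1 (-2.25) fell too and were low in untreated skin. The calls of Fzd7, Shisa2, Tenm2, Adgrl1, Fstl4, Panx2 and Ajap1 ended where days since induction entered the fit (log2 fold changes -2.4 for Fstl4, -2.76 for Panx2, -2.09 for Ajap1, -1.87 for Tenm2, -1.42 for Fzd7, -1.42 for Shisa2 and -1.24 for Adgrl1, adjusted p 0.0544 to 0.134). In the plot against days since induction, the laser-treated mice lie to the left of all untreated mice.

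**Figure D5:**
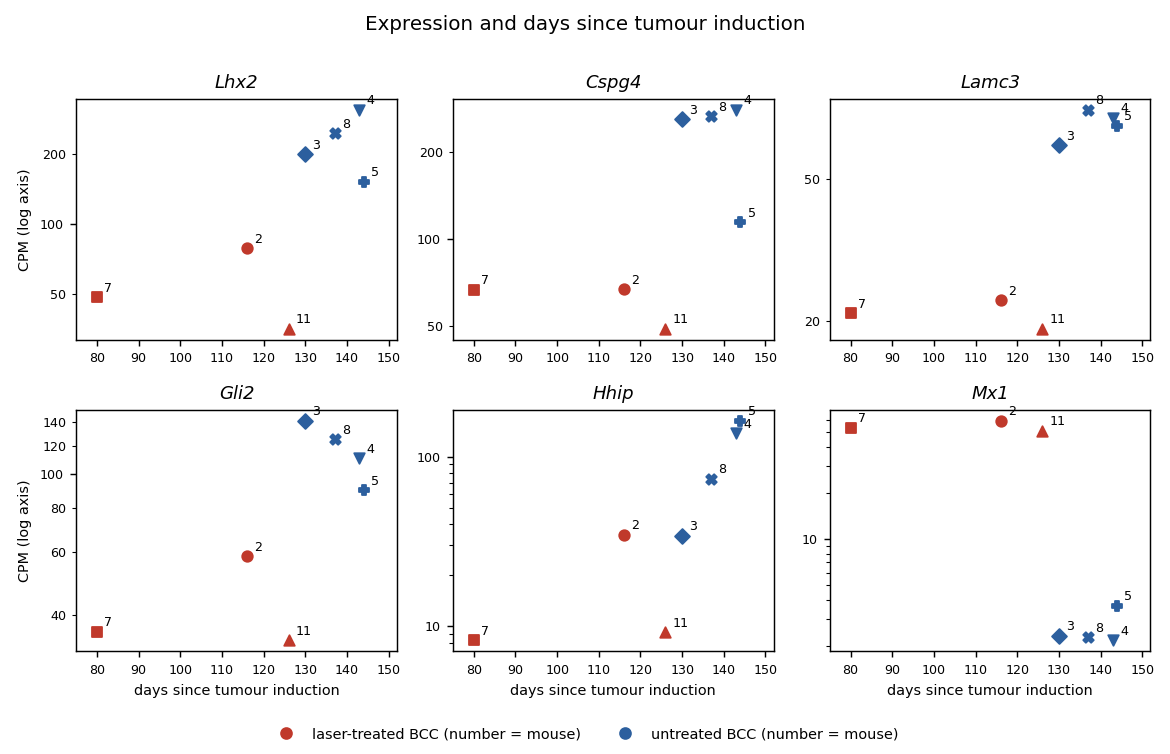
CPM (y axes, log scale, a scale of its own per gene) against days since tumour induction (x axes) in the 3 laser-treated mice (red) and the 4 untreated BCC mice (blue), numbered by mouse. Laser-treated mice lie at 80 to 126 days and untreated mice at 130 to 144 days; Lhx2, Cspg4, Lamc3 and Gli2 are lower after laser, Mx1 is higher, and Hhip overlaps.

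The same laser-treated mice were set against the other groups in the same fit, so these comparisons share samples with the one above. Laser-treated mice were older than all healthy mice, and the part of age was not tested. The growing-hair score was 4.08 to 9.37 in healthy mice, 0.53 to 8.32 after vismodegib and -0.59 to 3.48 after laser. Its part in these comparisons was not tested either. Against vismodegib-treated BCC skin, 1054 genes were higher after laser (6.69%) and 388 lower (2.46%). Against healthy skin, 1253 were higher (7.95%) and 203 lower (1.29%). Antiviral interferon-stimulated genes were higher after laser in 29 of 31 cases against vismodegib and in 31 against healthy skin, with log2 differences of 3.63 and 5.22 for Mx1. For monocyte and macrophage genes the counts were 11 and 22 of 26, and for Cd68 the differences were 2.41 and 2.63. Neutrophil genes were higher after laser in 1 of 19 cases against vismodegib and in 15 against healthy skin. Csf3r did not differ detectably from vismodegib (0.27, adjusted p = 0.775) and was higher than in healthy skin (4.98).

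Wound-edge keratinocyte genes were higher after laser than after vismodegib in 4 and lower in 7 of 26 cases (median -1.77), and matrix assembly genes were higher in 16 of 29. Collagens were higher after laser than after vismodegib in 15 of 24. Embryonic muscle genes were higher in 9 of 22 against vismodegib and in 12 against healthy skin, with 6.33 and 10.91 for Myh3. Among the genes that fell, Hhip was higher after laser than after vismodegib (2.16, adjusted p = 0.0205). Gli1 differed detectably from neither vismodegib-treated skin (0.81, adjusted p = 0.301) nor healthy skin (-0.052, adjusted p = 0.958), and Lhx2 likewise (0.41 and -0.54, adjusted p = 0.481 and 0.34). Every healthy mouse had a higher growing-hair score than the laser-treated mice, as given above.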

How the data were processed

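RNA was measured in 1 cm2 pieces of mouse skin. Per the labels' protocols, libraries were made with the MGIEasy directional kit after oligo dT enrichment. The deposited table gives expected counts, which the authors made with Bowtie2 and RSEM against GRCm39 per the submitters' processing notes and did not scale. No version, annotation or strand setting is named there, so reads of antisense partners may be mixed. It holds 18521 symbols, and 3.42% of the values are not whole. Totals were 27185921 to 33229831 counts in the 6 mice with 1 library and 65327564 in mouse 11. Counts were rounded, and the paired libraries of mice 11, 12 and 16 were summed, so that the mouse was the replicate. edgeR 4.0.16 (R 4.3.3) filtered genes by filterByExpr, which left 15760, scaled by TMM and fitted all 16 mice together by the quasi-likelihood method, with the group as the sole term. Benjamini-Hochberg adjustment ran over these genes, and "rose" and "fell" mean an adjusted p under 0.05 in that test. Log2 fold changes are laser-treated minus untreated. The test was checked on simulated data. Genes, lists and rules were chosen with earlier results of these data known. The 49 lists hold 957 symbols, of which 937 are in the file (3 by a synonym) and 899 were tested. Genes were named by rule: Trp53, Ptch1, Gli1, Gli2 and Hhip, then the 10 largest rises and falls by fold change and the 8 by difference of mean CPM, among genes called also without each of the 7 mice, without overlap, with at least 1 CPM in the higher group and with a proper symbol, then up to 3 members per list by p. Not every gene taken is printed, and some are not reported here. Ccnd1, Ccr3, Cd3e, Csf1r, Epcam, Fasl, Fos, Fosl1, Ifih1, Ifit3b, Ifnar1, Isg15, Kif7, Krt16, Krt5, Krt6b, Lgr6, Ly6a, Ly6c2, Myog, Oas3, Pecam1, Pmaip1, Rsad2, S100a8, Slc2a3, Sox9, Stat2, Tbx1, Tfap4, Tlr7, Ifna4, Ifnb1, Ifng, Ms4a1 and Ngp were named after their values were seen. Alternatives were RLE scaling, library size alone, 2 other filters, limma 3.58.1 voom with quality weights, DESeq2 1.42.0, the 7 mice alone, other uses of paired libraries, days since induction, a growing-hair score or the replicate number as a term, and each mouse left out. The fit with days since induction left out the healthy mice, which have no such days. Promoters and their coordinates come from RefSeq (GRCm38.p6), matched by symbol, and were not converted to the build of the counts. Tables and figures were made with Python 3.11.15, pandas 2.3.3, scipy 1.17.1 and matplotlib 3.10.9.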

Additional observations from a re-analysis of the deposited data

Results flagged for a closer look

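Among the genes named, 14 had an untreated mouse so far from the other 3 that the gap passed Dixon's 95% limit for 4 values. Chance alone gives this in about 1 in 20 groups if values are normally distributed. The check used CPM, which need not be, so the rate for these data is not known. The share of all genes checked that these 14 make up was not computed, so no excess over that rate is shown. Mouse 3 was above the other untreated mice for Ctsb at 1479 CPM (others 909.6 to 932), Ctsd at 1767 CPM (others 759.9 to 891) and Mcpt8 at 0.145 CPM (others 0.0272 to 0.0311). Mouse 3 was below the other untreated mice for Angpt2 at 2.09 CPM (others 3.76 to 4.06), Kcnip2 at 7.62 CPM (others 12.9 to 13.9) and Smoc2 at 291 CPM (others 369.7 to 370.3). Mouse 4 was above the other untreated mice for Fstl4 at 3.47 CPM (others 1.69 to 1.97) and Tnnt1 at 7.08 CPM (others 1.1 to 1.62). Mouse 5 was above the other untreated mice for Ccl4 at 1.34 CPM (others 0.272 to 0.434), Cxcl2 at 3.36 CPM (others 0.319 to 0.617) and Mx1 at 3.64 CPM (others 2.18 to 2.32). Mouse 5 was below the other untreated mice for Cspg4 at 114 CPM (others 260.0 to 280.1) and Shisa2 at 76.4 CPM (others 121 to 127). Mouse 8 was above the other untreated mice for Pecam1 at 61.1 CPM (others 35.9 to 39.6). The group of 3 laser-treated mice is too small for this check.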

How the results depend on the processing

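Main counts were 961 rises and 260 falls. Leaving out each mouse in turn gave 572 to 853 rises and 25 to 337 falls, with 141, 118 and 112 falls without mice 4, 7 and 8 and the lowest counts without mouse 11. Days since induction as a covariate gave 554 rises and 161 falls, limma voom 1550 and 1193, DESeq2 1245 and 732, and all 19 libraries as replicates 1342 and 726; the causes were not tested. The fit of the 7 mice alone gave 838 and 218. Library size alone moved the median of all genes by -0.14, with 745 rises and 205 falls. In all alternatives 361 rises and 7 falls kept their call. The replicate number as a block gave 1042 rises and 194 falls. Deviations of same-numbered mice correlated at -0.31, -0.27 and -0.18 for mice 2, 7 and 11. Mouse 11 also carries the number 4 and correlated at -0.31 with mouse 8. None correlated best with a mouse of its own number. So few values cannot show whether same-numbered mice shared a batch, and this was not tested further. H2-DMa turned to -0.26 with days since induction as a covariate. The 3 laser-treated mice limit the precision of every test, and genes under about 1 CPM rest on few counts.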

Other observations

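The remaining lists had few calls. Of 19 dermal adipocyte genes, 0 passed in edgeR (median 0.61; 1 at an unadjusted p under 0.05, 1 higher and 0 lower in limma voom, and 0 higher and 0 lower in DESeq2), and Fabp4, a fatty acid carrier, was measured at 707 ± 177 CPM after laser and 271 ± 143 CPM in untreated skin (SD, n = 3 and 4; log2 fold change 1.38, SE 0.51, adjusted p = 0.124). Of 22 sebaceous and sterol genes 0 passed in edgeR (median -0.23; 0 at an unadjusted p under 0.05, 0 higher and 0 lower in limma voom, and 0 higher and 0 lower in DESeq2), while 8 were lower after laser than after vismodegib. Growing hair (24 genes, median -4.12) and melanocyte genes (12, median -4.39) had 0 calls in edgeR. For growing hair there were 2 at an unadjusted p under 0.05, 0 higher and 0 lower in limma voom, and 0 higher and 3 lower in DESeq2, and for melanocytes 4 at an unadjusted p under 0.05, 0 higher and 0 lower in limma voom, and 0 higher and 5 lower in DESeq2. Without mouse 3 the medians were 0.076 and 0.39. Of 24 cell cycle genes 0 passed in edgeR (median 0.28; 0 at an unadjusted p under 0.05, 0 higher and 0 lower in limma voom, and 0 higher and 0 lower in DESeq2). Among 22 p53 target and apoptosis genes 2 rose (median 0.21), Gdf15 (2.43) and Pmaip1 (1.39), against 4 in limma voom. Of 24 early response and heat shock genes 3 rose (median 0.059), Atf3 (2.46), Fosl1 (1.9) and Fos (1.73), against 5 in DESeq2, 6 without mouse 2 and 1 without mouse 3, 4, 5 or 11. Of 12 Schwann cell and nerve genes 1, Cnp (1.11; median 0.066), rose. Days since induction as a covariate ended the call of Gdf15 (log2 fold change 2.12, adjusted p = 0.156). Pmaip1 lost its call without mouse 11 (log2 fold change 1.09, adjusted p = 0.0798). Fosl1 lost its call when any 1 of mice 3, 4, 5 and 11 was left out, with days since induction as a covariate and in 2 other alternatives (log2 fold change 0.97 to 1.95, adjusted p 0.0517 to 0.369). Fos lost its call when any 1 of mice 3, 4, 5, 7 and 11 was left out, with days since induction as a covariate and in 5 other alternatives (log2 fold change 0.50 to 1.95, adjusted p 0.0586 to 0.678). Cnp lost its call without mouse 2 or 7 and with days since induction as a covariate (log2 fold change 0.98 to 1.03, adjusted p 0.0542 to 0.147). 

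The libraries of mouse 11 had a chi-square of 42.2 per degree of freedom, against 213.4 between mice 2 and 7. The library numbered 4 was higher in all 18 guanylate-binding and immunity-related GTPase genes (median log2 difference 1.18), all 10 PYHIN genes (1.01) and all 19 class I genes (0.44). It was lower in all 22 sebaceous and sterol genes (-0.54) and in most differentiated keratinocyte genes (-0.60). Krt6b had 9561 CPM in the library numbered 3 and 5568 in that numbered 4, and Cxcl2 581 and 576.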
